A study of Mus musculus with 2 samples.

Results

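The mouse Schlafen family was examined through 7 of its genes, Slfn1, Slfn2, Slfn3, Slfn4, Slfn5, Slfn8 and Slfn9, out of 18193 genes named on the array. The probe sets were matched by gene symbol. The family, like the gene lists set beside it, was chosen with earlier results of these arrays known. In the platform annotation 11 probe sets named 1 of these genes and no other, and each probe set is described separately. The arrays compared regulatory T (Treg) cells, CD4 T cells that hold immune responses in check, sorted as CD4+CD25hi cells from mouse spleen at an age of 6 to 8 weeks. The WT pool held RNA of wild-type littermates and was read on 1 array, and the KO pool held RNA of miR-125a-deficient mice (genotype miR-125a KO) and was read on the other. The number of mice in a pool, the cells in which the deletion acts and the strain are not given in the sources used here. The question is which Treg transcripts differ without this microRNA.

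Schlafen proteins share a core domain with a divergent ATP-binding motif, and the core of several mammalian members can bind or cleave transfer RNA. The short members, Slfn1 and Slfn2, consist of little more than this core. Slfn3 and Slfn4 are of intermediate length, and the long members, Slfn5, Slfn8 and Slfn9, carry in addition a region related to RNA helicases. In T cells the family is known for quiescence: Slfn1 restrains the growth of T cells when overexpressed, and mice with a defective Slfn2 have T cells that leave the resting state and die on stimulation. Several members are induced by type I interferon, which acts through the interferon-stimulated response element (ISRE) in the promoters of its target genes.

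The mature products of the gene missing from the knockout are shown first, because the missing RNA defines the comparison. They are from RefSeq, with coordinates in GRCm38.p6, and capitals mark the seed, bases 2 to 8, with which a microRNA pairs to its targets.
mmu-miR-125a-5p, chr17:17830817-17830840, + strand: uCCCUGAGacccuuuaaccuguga
mmu-miR-125a-3p, chr17:17830855-17830876, + strand: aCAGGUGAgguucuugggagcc
This microRNA was named by no probe set of those used, so the deletion was not checked on the arrays. Spaca6, the protein-coding gene beside it, had a signal of 5.62 in the WT pool and 35.5 in the KO pool, under the signal minimum described below.

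The promoters of 5 members are shown next, because a core of the ISRE was found in the long members and not the short ones. The choice of genes did not use these sequences. The family's link to interferon was known, however, so the feature is not independent of that choice. Each run is the 250 bases before the start of the gene, read in the direction of the gene, from RefSeq with coordinates in GRCm38.p6. Capitals mark matches on either strand to the core of the ISRE, which is GAAA, any base at each of 2 positions, and GAAA again.
Slfn5, chr11:82951852-82952101, + strand: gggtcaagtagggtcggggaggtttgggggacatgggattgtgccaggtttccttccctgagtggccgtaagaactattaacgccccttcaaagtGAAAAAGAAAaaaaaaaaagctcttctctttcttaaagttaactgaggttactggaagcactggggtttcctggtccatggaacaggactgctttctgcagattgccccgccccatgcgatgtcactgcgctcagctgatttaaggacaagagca
Slfn9, chr11:82991831-82992080, - strand: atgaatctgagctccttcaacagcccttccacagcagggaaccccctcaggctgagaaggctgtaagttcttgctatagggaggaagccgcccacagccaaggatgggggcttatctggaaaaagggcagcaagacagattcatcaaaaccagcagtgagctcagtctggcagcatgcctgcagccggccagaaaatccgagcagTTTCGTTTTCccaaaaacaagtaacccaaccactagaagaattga
Slfn8, chr11:83020811-83021060, - strand: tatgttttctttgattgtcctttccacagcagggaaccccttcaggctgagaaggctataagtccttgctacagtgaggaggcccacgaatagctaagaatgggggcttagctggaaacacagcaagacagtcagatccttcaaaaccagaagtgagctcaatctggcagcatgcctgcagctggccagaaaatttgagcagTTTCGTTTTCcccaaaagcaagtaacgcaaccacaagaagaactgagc
Slfn2, chr11:83064862-83065111, + strand: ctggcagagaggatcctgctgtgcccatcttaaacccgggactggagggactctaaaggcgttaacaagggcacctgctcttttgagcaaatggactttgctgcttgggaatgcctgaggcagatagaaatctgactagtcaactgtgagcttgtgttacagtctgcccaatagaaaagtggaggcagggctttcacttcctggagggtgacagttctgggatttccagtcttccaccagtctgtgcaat
Slfn1, chr11:83116570-83116819, + strand: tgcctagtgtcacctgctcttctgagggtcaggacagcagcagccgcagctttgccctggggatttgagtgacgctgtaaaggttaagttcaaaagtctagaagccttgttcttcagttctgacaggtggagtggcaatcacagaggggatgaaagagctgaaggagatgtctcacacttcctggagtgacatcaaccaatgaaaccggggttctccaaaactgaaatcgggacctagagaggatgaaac

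All 7 members had a promoter window of 300 bases, which adds the 50 bases after the start, and Slfn8 had 2 windows that overlap. An ISRE core was found in the windows of 3 genes, the long members Slfn5, Slfn8 and Slfn9. The windows of the other 4, Slfn1, Slfn2, Slfn3 and Slfn4, held no match. Of 32851 windows of this length over all genes, 3.44% held an ISRE core. That share counts windows, whereas the 3 are genes, and the difference was not tested. The match lay 48 to 39 bases before the start of Slfn8, 45 to 36 bases before that of Slfn9 and 155 to 146 bases before that of Slfn5. In the direction of the gene it had the same letters, TTTCGTTTTC, in Slfn8 and Slfn9, and the windows of these genes were 84.9% identical over 292 aligned bases. The other pairs of member windows were 55.3% to 68.2% identical, so Slfn8 and Slfn9 were the closest pair among the windows compared. The matches in Slfn8 and Slfn9 are therefore not independent of each other. In the Slfn5 window the match runs on into a stretch of A. The gamma-activated site TTCNNNGAA, which reads the same on both strands and whose letters can overlap an ISRE core, was found in 0 of the 7 genes' windows and in 8.3% of all windows. A match is a description of letters and does not show that a factor binds there.

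The authors' log2 values were turned back to linear MAS5 signals, the Affymetrix summary that subtracts mismatch signal. A probe set passed the signal minimum when the mean of its 2 signals was at least 62.5, the median over all probe sets. Of the 11 Schlafen probe sets 5 passed, 1 each for Slfn1, Slfn2, Slfn4, Slfn8 and Slfn9, and each of these was above the minimum in both pools. The other 6 did not pass and ranged from 3.0 to 42.6 in linear signal. They were the only probe sets of Slfn3 and Slfn5 and the dimmer probe sets of Slfn1 and Slfn9. Signals of different probe sets are not compared with each other, since each has its own affinity.

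**Figure D1:**
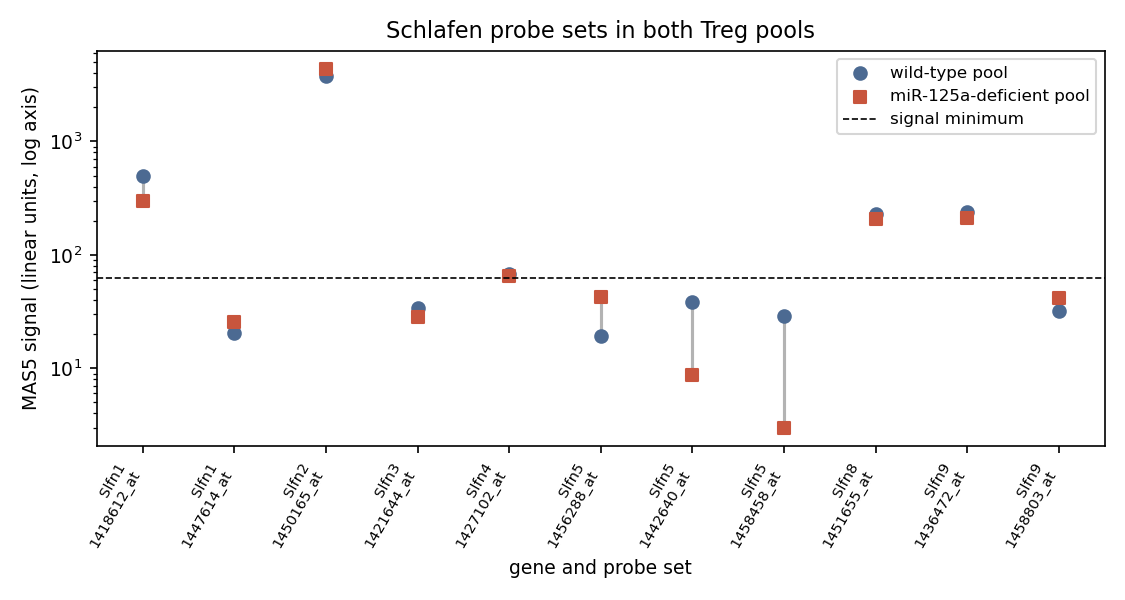
Linear MAS5 signal (log axis) of each of the 11 Schlafen probe sets in the WT pool (circles) and the KO pool (squares), 1 array each, with the signal minimum of 62.5 as a dashed line. The 5 probe sets at or above the line have pairs of points that lie close together, widest for Slfn1 at 495 and 297, and the 3 Slfn5 probe sets lie below the line and point in different directions.

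No Schlafen probe set past the signal minimum reached 2-fold between the pools. The log2 ratio used here is log2 of (KO signal + 16.3) / (WT signal + 16.3), where 16.3 is the 25th percentile of all signals, and it understates the change of dim probe sets. Of the 5 Schlafen probe sets past the minimum, 0 rose past 2-fold in the KO pool, beside 1.04% of all probe sets past the minimum, and 0 fell past it, beside 1.52%. In either direction the share was 2.56% of the 22491 probe sets, at which 0 of 5 is no result about the family. Among those 22491, 233 were higher and 342 lower, and after loess scaling 286 were higher and 263 lower. The log2 ratio was below 0 for 4 of the 5 and above 0 for 1, and their median was -0.14 (0.21 with the filter at the 75th percentile, which keeps Slfn2 alone), beside -0.028 over all probe sets past the minimum, of which 53.5% were below 0. Each genotype has 1 pooled array, so there is no test. The error given beside a ratio is the probe-set SD, the spread of the log2 ratio between the 2 brightest probe sets of a gene. It was computed over 5030 genes grouped by the mean signal of the pair, whose 2 signals can differ. The probe-set SD leaves out the variation between mice and between arrays. In such bulk RNA, fewer cells of a type and less RNA per cell cannot be told apart.

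Slfn1 was furthest from 0 of the 5 genes past the minimum. Its probe set 1418612_at had a signal of 495 in the WT pool and 297 in the KO pool. The log2 ratio was -0.71 with a probe-set SD of 0.27, which is 1.63-fold lower in the KO pool. At 1.5-fold Slfn1 was the 1 Schlafen probe set called lower, beside 7.75% of all probe sets past the minimum, and 3.93% of the probe sets of similar signal had a ratio as low or lower. Over the 8 settings in which the probe set was kept, its log2 ratio ran from -0.74 to -0.63. The second Slfn1 probe set, 1447614_at, was under the minimum at 20.7 in the WT pool and 25.8 in the KO pool, so it did not repeat the direction of the brighter one.

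Slfn2, the member whose loss breaks T cell quiescence, went the other way by a small amount. The signal of probe set 1450165_at was 3786 in the WT pool and 4383 in the KO pool. Its log2 ratio was 0.21 with a probe-set SD of 0.19, or 1.16-fold higher, and 77.7% of probe sets of similar signal had a ratio as low or lower. The log2 ratios of Slfn2 and Slfn1 differed by 0.92, with a probe-set SD of the difference of 0.33. This sets 1 probe set per gene side by side and was not tested. Slfn1 and Slfn2 are neighbouring protein-coding genes on chromosome 11 in the RefSeq gene order, and their promoter windows were 68.2% identical over 214 aligned bases.

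The helicase-related members Slfn8 and Slfn9 had nearly the same small ratios. Slfn8, which impairs T cell development when overexpressed in mice, had a signal of 231 in the WT pool and 208 in the KO pool with probe set 1451655_at. Slfn9 had 237 in the WT pool and 210 in the KO pool with probe set 1436472_at. The log2 ratios were -0.14 for Slfn8 and -0.17 for Slfn9, each with a probe-set SD of 0.32, so both lay well within that error of 0. Their ratios differed by 0.026, with a probe-set SD of the difference of 0.45. Slfn8 and Slfn9 are near relatives in sequence. Whether a probe set of either picks up transcripts of the other was not examined, so the pair may not be independent. The second Slfn9 probe set, 1458803_at, was under the minimum at 32.3 in the WT pool and 41.8 in the KO pool. Slfn10-ps, a relative between Slfn8 and Slfn2 that is no member here, gave signals of 558 and 424 in the WT pool and the KO pool respectively and a log2 ratio of -0.38 (probe-set SD 0.27).

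**Figure D2:**
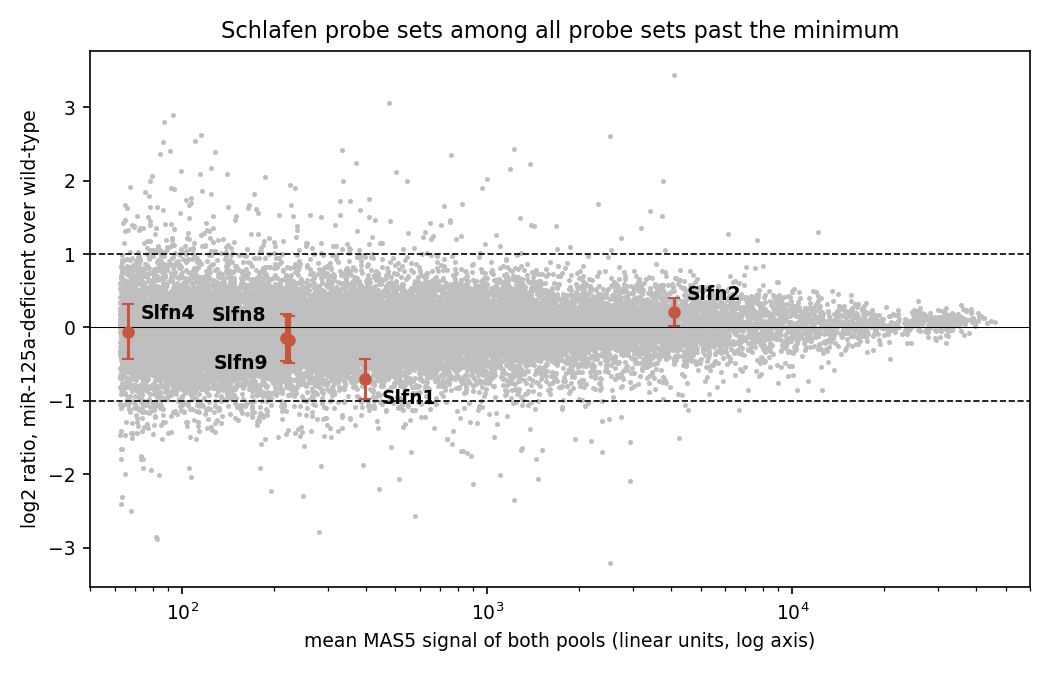
Log2 ratio of the KO pool over the WT pool against mean MAS5 signal (log axis) for the 22491 probe sets past the minimum (grey), with the 5 Schlafen probe sets in red, bars of 1 probe-set SD and dashed lines at 2-fold. Slfn4, Slfn8 and Slfn9 sit near 0, Slfn2 at 0.21 and Slfn1 at -0.71, all inside the 2-fold lines.

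Slfn5 could not be read in either direction. Its 3 probe sets were all under the minimum. Probe set 1442640_at had a signal of 38.8 in the WT pool and 8.70 in the KO pool, and 1458458_at had 28.6 in the WT pool and 3.0 in the KO pool. Probe set 1456288_at went the opposite way, from 19.3 in the WT pool to 42.6 in the KO pool. The deposited log2 values therefore differed by -2.16 and -3.26 for the first pair and by 1.14 for the last. Without the minimum the first pair would pass 2-fold lower. MAS5 signals at this level vary widely because mismatch signal is subtracted, and probe sets of the same gene here disagreed in sign.

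Slfn4, a gene of activated macrophages, and Slfn3, studied mostly in the gut epithelium, gave little signal in these Treg pools. The Slfn4 probe set 1427102_at was just past the minimum, at 68.2 in the WT pool and 64.9 in the KO pool, with a log2 ratio of -0.057 and a probe-set SD of 0.38. The Slfn3 probe set 1421644_at was under it, at 34.1 in the WT pool and 28.5 in the KO pool. A further probe set, 1450322_s_at, names both Slfn4 and Slfn3 and was left out of the members. Its signals were 47.9 and 44.6 in the WT pool and the KO pool respectively.

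The labelled cell type was checked against markers. All 7 measured T cell markers and all 5 measured Treg markers passed the minimum. Foxp3, the lineage factor of Treg cells, stood at 1631 in the WT pool and 694 in the KO pool (log2 ratio -1.21). Il2ra, which encodes the CD25 used in the sort, stood at 15390 and 18551. Of the 5 Treg markers 3 had a log2 ratio above 0 and 2 below. Of 13 measured myeloid markers 5 passed, and their summed signal over all 13 was 1162 in the WT pool and 752 in the KO pool. Of 6 measured markers of CD8 T and NK cells 5 passed, all 5 with a log2 ratio below 0, beside 53.5% of all probe sets past the minimum. That share counts probe sets and not genes, and the median log2 ratio over genes was 0.0072. The summed signal of all 6 markers was 14879 in the WT pool and 10180 in the KO pool. Most of that sum came from Klrd1, at 7919 in the WT pool and 5065 in the KO pool, and Nkg7, at 5438 and 3969, while Cd8a stood at 435 and 295 and Cd8b1 at 438 and 332. The B cell markers, 2 of 6 past the minimum, summed to 420 and 381. Of these 2, 1 had a log2 ratio above 0 and 1 below, with a median of 0.081. Each sum leans on the brightest probe sets of its list and includes those under the minimum. No measured marker of these lists was at the floor of the deposited values. Foxp3 was thus lower in the KO pool, and the myeloid and CD8 T or NK markers summed to less there. The B cell markers had no common direction. In the same pool Slfn1 was lower and Slfn4 nearly level. The part of these marker differences in the Schlafen ratios was not tested.

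The Schlafen genes lie in a single cluster on chromosome 11, and the genes around it gave no common direction. In the RefSeq gene order the cluster runs Slfn5, Slfn9, Slfn8, Slfn10-ps, Slfn2, Slfn1, Slfn4, Slfn3 and Slfn14, the last of which is not analysed here. Of the 20 protein-coding neighbours taken, 10 on each side, 17 were measured and 10 passed the minimum. Among these 0 were 2-fold apart in either direction, beside 2.26% of 10583 genes in all, with 1 probe set per gene, the brightest. At that share 0 of 10 is no result about the neighbours. Of the 10, 5 had a log2 ratio above 0 and 5 below, and the median was 0.0036, beside 0.0072 over all genes past the minimum. Over the settings this median ran from -0.15 to 0.078. The highest were Zfp830 at 0.26 and Ccl9, a chemokine, at 0.23. The lowest were the chemokines Ccl1 at -0.60 and Ccl5 at -0.59. Slfn1 at -0.71 had the lowest ratio of the measured genes past the minimum in this stretch.

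**Figure D3:**
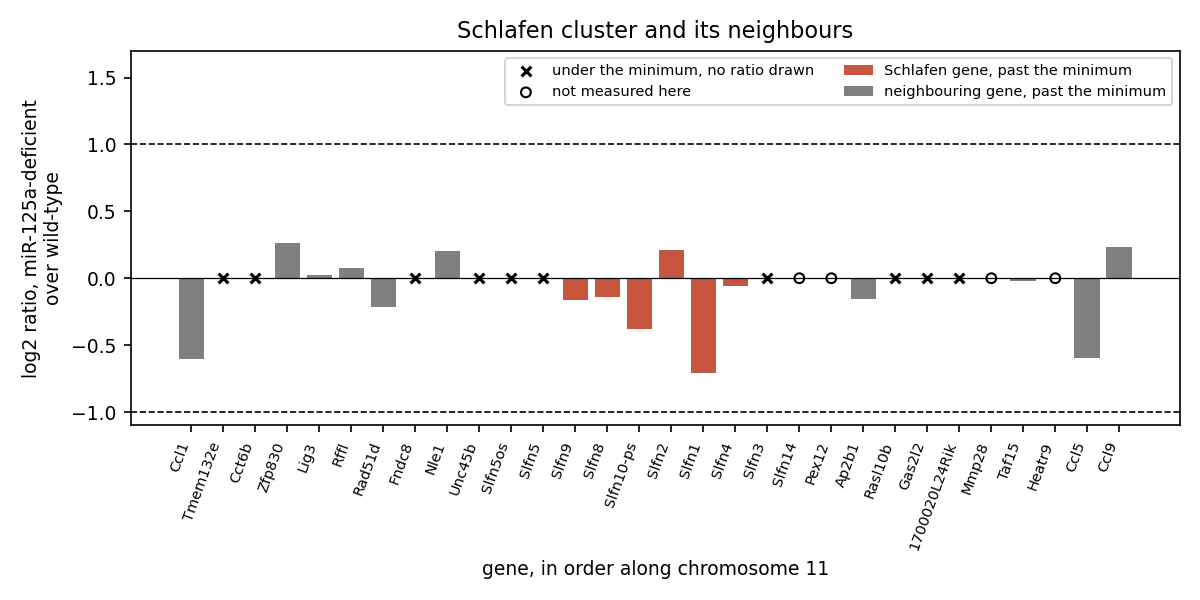
Log2 ratio of the KO pool over the WT pool for the Schlafen genes (red bars) and 10 protein-coding neighbours on each side (grey bars), in gene order along chromosome 11; crosses mark genes under the signal minimum and open circles genes not measured here. Bars point both ways inside and outside the cluster, with Slfn1 at -0.71 and Slfn2 beside it at 0.21.

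Genes of T cell quiescence, the state with which Slfn1 and Slfn2 are linked, lay mostly below 0. All 18 measured genes of the list passed the minimum, and 16 had a log2 ratio below 0, beside 53.5% of all probe sets past it. That share counts probe sets, whereas the list has 1 probe set per gene. Of the 18, 3 were at least 2-fold lower and 0 at least 2-fold higher, beside 1.18% of genes called lower and 1.08% called higher. The list's median log2 ratio was -0.34, beside 0.0072 over all genes past the minimum. The list's median ran from -0.37 to -0.22 over 10 settings, the reported one included. The 3 were Klf2, which maintains quiescence and recirculation, at 366 in the KO pool and 971 in the WT pool (log2 ratio -1.37), Klf4, which restrains proliferation, at 326 against 732 (-1.13), and Btg2, an antiproliferative gene, at 1109 against 2410 (-1.11). Averaged over the probe sets of a gene that passed the minimum, Klf2 was the 1 gene of the list 2-fold lower. Klf2 had 1 such probe set, so averaging could not change its ratio, while Klf4 and Btg2 had 2 each. The highest were Foxo1, a transcription factor of resting T cells, at 0.26, and Lef1, a transcription factor of naive T cells, at 0.21. Slfn1 lay on the lower side with most of the list, and Slfn2 lay near its highest members.

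Activation genes mostly lay near 0. The list's median log2 ratio was -0.040, beside 0.0072 over all genes past the minimum. Of 14 measured genes, which all passed, 2 were higher by 2-fold or more and 0 lower, beside 1.08% and 1.18% of all genes. The 2 were Cd83, an activation marker, at 1.69, and Batf, an AP-1 factor of effector T cells, at 1.35. The lowest were Icos, a costimulatory receptor, at -0.34 and Cd69, an early activation marker, at -0.16.

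Interferon genes, among which the family is often counted, went both ways. Of 27 measured interferon-stimulated genes 22 passed the minimum. Of these, 2 were 2-fold or more above the WT pool, 1 was 2-fold or more below it, beside 1.08% and 1.18% of all genes past the minimum, and 9 were above 0 and 13 below. The count above was 3 with each of the other array scalings, with a pseudocount of 1 and with no filter, and 1 with the pseudocount at the median signal or the filter at the 75th percentile. The list's median log2 ratio was -0.070, beside 0.0072 over all genes past the minimum. The list's median ran from -0.33 to 0.018 over the settings, so it has no settled sign. Usp18, a brake on interferon signalling, stood at 1521 in the KO pool and 396 in the WT pool (log2 ratio 1.90, probe-set SD 0.23). Oas1a, a sensor of double-stranded RNA, stood at 153 against 64.2 (1.07, probe-set SD 0.38). The lowest were Isg20, an exonuclease, at -2.09, and Gbp3, a GTPase induced by interferon, at -0.66. The ratios of Slfn8 and Slfn9, whose windows hold an ISRE core, lay between these extremes. So did the central 90% of all probe sets past the minimum, from -0.69 to 0.57, so this does not place the 2 genes with the list.

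Receptors and signalling genes of the interferon response had mostly small ratios below 0. All 14 measured genes passed the minimum. Of these, 11 were below 0 and 3 above, while 53.5% of all probe sets past the minimum were below 0, a share of probe sets and not of genes. In either direction 0 reached 2-fold, beside 2.26% of all genes, a share at which 0 of 14 is no result about the list. The list's median log2 ratio was -0.20, beside 0.0072 over all genes past the minimum. Ifngr1, the ligand-binding chain for interferon gamma, was lowest at -0.79, followed by Irf2, a repressor of interferon-induced genes, at -0.48. Jak2, a kinase bound to the interferon gamma receptor, was highest at 0.25, followed by Stat2, a partner in the factor that binds the ISRE, at 0.20.

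**Figure D4:**
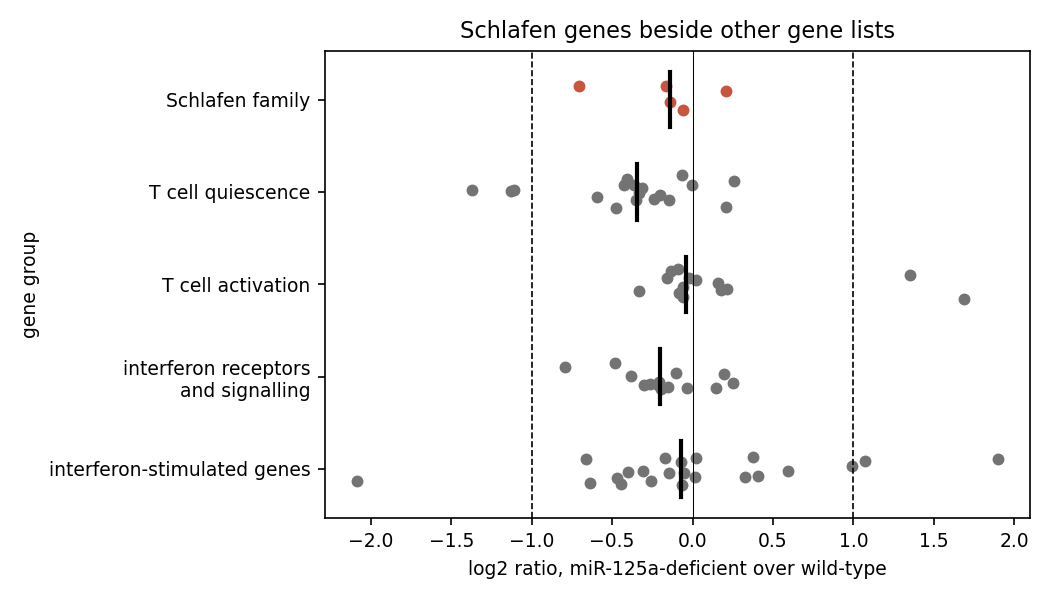
Log2 ratio of the KO pool over the WT pool for the 5 Schlafen probe sets past the minimum (red) and the genes of 4 lists past it (grey, 1 probe set per gene, spread vertically only to separate them); thick bars are medians and dashed lines mark 2-fold. The medians are -0.14 for the Schlafen family, -0.34 for quiescence, -0.040 for activation, -0.20 for interferon receptors and signalling and -0.070 for interferon-stimulated genes.

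The directions of the 5 Schlafen ratios were the same under every array scaling tried. The log2 ratio ran from 0.18 to 0.25 for Slfn2, from -0.15 to -0.056 for Slfn8, from -0.18 to -0.086 for Slfn9 and from -0.069 to -0.0089 for Slfn4. Slfn2 was above 0 in 9 of 9 settings and the other 4 genes were below 0 in 8 of the 8 settings that kept them. Only the array scalings could have changed a sign, because a pseudocount or a filter cannot. Since all settings use the same 2 arrays, this says nothing about variation between mice.

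**Figure D5:**
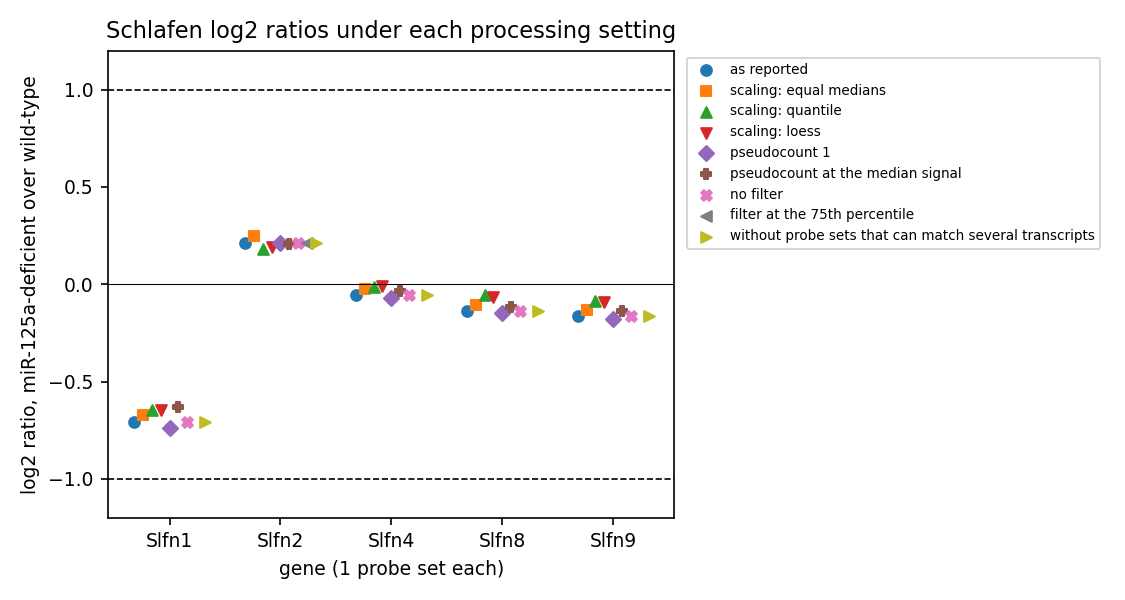
Log2 ratio of the KO pool over the WT pool for each of the 5 Schlafen genes past the minimum, 1 probe set each, as reported and under 8 other processing settings (symbols), with dashed lines at 2-fold. Slfn1 stays between -0.74 and -0.63, Slfn2 between 0.18 and 0.25, and the filter at the 75th percentile keeps only Slfn2.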

How the data were processed

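Biotin-labelled cRNA from 6 ug of pooled total RNA per genotype was read on Affymetrix whole-genome mouse arrays, per the labels' protocols. The authors deposited log2 values of 45101 probe sets per array, and MAS5 is named in the submitters' processing notes without a version. Back on a linear scale the mean after trimming 2% at each end was 500.0 on both arrays. The lowest deposited value, 0 on the log2 scale, was held by 552 WT and 473 KO probe sets. Genes were named from GEO's platform annotation of 2016. Of the probe sets, 34945 named 1 gene, 932 several, 64 were controls and 9160 had no name in that table. Across the 22491 non-control probe sets past the minimum, log2 signals of both arrays had a Pearson r of 0.976 (probe sets, not replicates).

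The minimum, the pseudocount and the 2-fold call follow the report. The probe-set SD is the SD of the difference in log2 ratio between the 2 brightest probe sets of a gene, divided by the square root of 2, in 10 groups of equal size by mean signal. It ran from 0.38 at the lowest to 0.16 at the highest signals. Promoter windows were aligned with Biopython 1.88 and motifs searched on both strands. Scripts ran in Python 3.11.15 with numpy 2.4.6, pandas 2.3.3 and statsmodels 0.14.6 (loess, span 0.3) and were tested on simulated data. The members and gene lists were chosen with earlier results of these data known. Named genes were all members, the 2 highest and 2 lowest of each list past the minimum, Spaca6 and the other Schlafen genes; Foxp3, Il2ra, Btg2, Klrd1, Nkg7, Cd8a and Cd8b1 were added after their values were seen. Only 2 arrays were used, which limits the precision.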

Additional observations from a re-analysis of the deposited data

How the results depend on the processing

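The alternatives chosen at the start were equal medians, quantile and loess scaling, pseudocounts of 1 and of the median signal of 63.1, no filter, a minimum mean signal at the 75th percentile, 451, leaving out probe sets that are not specific for 1 transcript by their ID suffix, a 1.5-fold call and the mean over probe sets. A count was taken as unmoved within 1.5 times its reported value, and a ratio or median within 1 probe-set SD, which lets a median near 0 change sign. By this measure 12 counts and medians moved and 159 did not, nor did any of the 36 single Schlafen ratios. The filters and the removal of unspecific probe sets leave a kept single ratio unchanged, so only the scalings and pseudocounts could move it. Within that tolerance, 3 interferon-stimulated genes in place of 2 were higher with each of the other scalings, with a pseudocount of 1 and with no filter, and 4 quiescence genes in place of 3 were lower at 1.5-fold. The median of the interferon-stimulated genes turned to 0.018 without the unspecific probe sets, and that of the neighbours to -0.15 with no filter and to -0.017 with the mean over probe sets. With no filter, 2 Schlafen probe sets, both of Slfn5, and 1 neighbouring gene were at least 2-fold lower. With the filter at the 75th percentile, Slfn2 alone was left, so the Schlafen median was 0.21, and 1 interferon-stimulated gene was higher. With the pseudocount at the median signal 1 interferon-stimulated gene was higher. Without those unspecific probe sets 0 interferon-stimulated genes were lower, because that of Isg20 is such a probe set. At 1.5-fold, 1 Schlafen probe set, 3 interferon-stimulated genes, 1 interferon signalling gene and 2 neighbours were lower and 4 interferon-stimulated genes higher. With the mean over probe sets 1 quiescence gene, Klf2, was 2-fold lower, and it had only 1 probe set past the minimum to average. No paired analysis was possible because each genotype has 1 array. Dim probe sets, such as all 3 of Slfn5, are limited by mismatch subtraction.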

Other observations

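Of the Schlafen-related transcripts outside the 7 members, Slfn5os, an antisense RNA of the Slfn5 locus, had a signal of 6.40 in the WT pool and 5.56 in the KO pool. Slfnl1, a Schlafen-like gene outside the cluster, had 4.47 in the WT pool and 22.2 in the KO pool. Both were under the signal minimum, so no ratio is given for them.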
